A study of Mus musculus with 6 samples.

Results

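Transcripts of red blood cells and of platelets were followed in mouse inguinal lymph nodes as a measure of the blood that a dissected node carries. The set holds 8 of the 50559 genes in the table, found by their symbols: 5 red cell genes (Hba-a1, Hba-a2, Hbb-bs, Hbb-bt and Alas2) and 3 platelet genes (Pf4, Ppbp and Itga2b). RNA was sequenced from 6 lymph node samples, 3 of the Control group and 3 of the Naringin group, which was given naringin, a bitter flavanone glycoside of grapefruit, mixed into the food at 200 mg/kg per day. The labels give no strain, age or sex, no duration of feeding and no description of the Control food. They also do not state whether the 3 nodes of each group are from different mice, so p-values measure only the spread between these samples, which may be technical.

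Values are CPM, that is, reads of a gene per 1000000 reads assigned to genes in that library. The libraries held 13074180 to 14976422 such reads, so 1 read was worth 0.0668 to 0.0765 CPM. The lymphocyte markers fixed for the node were abundant in each library: the 12 genes summed to 4355 to 4672 CPM in Control and 4180 to 4990 CPM in Naringin. Macrophage, mast cell, neutrophil and fat cell markers were uneven between libraries in both groups, and their sums are given beside the genes they move with.

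Adult haemoglobin is a tetramer of 2 alpha chains and 2 beta chains, each holding a haem group that binds oxygen. Mature red cells of mammals have no nucleus and make no new RNA, but the youngest of them in blood, the reticulocytes, still carry globin RNA and that of Alas2, the red cell form of the first enzyme of haem synthesis. Platelets are fragments of megakaryocytes and also lack a nucleus. They keep some megakaryocyte RNA, including that of the chemokines Pf4 (platelet factor 4) and Ppbp (pro-platelet basic protein), which they release from granules, and of Itga2b, the alpha chain of their fibrinogen receptor. Outside platelets, Pf4 RNA is also known from tissue macrophages, and Itga2b protein (CD41) from mast cells, basophils and lymphatic endothelium of lymph nodes.

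The promoters are shown because all 5 red cell genes had a higher mean with naringin. The globin genes also fall into pairs of near copies. How far this limits telling reads apart is given after the promoters, from the transcripts. All 8 genes matched RefSeq's promoter table (build GRCm38.p6, older than the mm39 of the counts). The 250 bases before the transcription start are printed 5′ to 3′ on the gene's own strand. Capitals mark GATAA or its reverse complement TTATC (a core bound by GATA factors), CCNCNCCC or GGGNGNGG (a pattern bound by KLF factors), AGGAAG or CTTCCT (an ETS core), and TATAA on the gene's strand only (a TATA box core). These patterns can overlap one another and were chosen with the sequences in view. The windows are chr11:32283422-32283671 (+) for Hba-a1, chr7:103827929-103828178 (-) for Hbb-bs, chr7:103813924-103814173 (-) for Hbb-bt, chrX:150547167-150547416 (+) for Alas2, chr5:90772185-90772434 (+) for Pf4, chr5:90768268-90768517 (+) for Ppbp and chr11:102469884-102470133 (-) for Itga2b.
Hba-a1: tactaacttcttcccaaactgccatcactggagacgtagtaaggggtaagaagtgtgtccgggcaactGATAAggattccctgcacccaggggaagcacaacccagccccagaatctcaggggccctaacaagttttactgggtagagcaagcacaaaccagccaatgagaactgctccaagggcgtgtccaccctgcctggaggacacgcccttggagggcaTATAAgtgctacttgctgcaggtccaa
Hbb-bs: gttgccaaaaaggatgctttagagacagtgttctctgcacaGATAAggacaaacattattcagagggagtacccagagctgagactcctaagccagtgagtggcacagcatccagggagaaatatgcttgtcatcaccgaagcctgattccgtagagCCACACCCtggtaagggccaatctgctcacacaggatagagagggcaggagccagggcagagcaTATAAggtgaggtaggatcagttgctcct
Hbb-bt: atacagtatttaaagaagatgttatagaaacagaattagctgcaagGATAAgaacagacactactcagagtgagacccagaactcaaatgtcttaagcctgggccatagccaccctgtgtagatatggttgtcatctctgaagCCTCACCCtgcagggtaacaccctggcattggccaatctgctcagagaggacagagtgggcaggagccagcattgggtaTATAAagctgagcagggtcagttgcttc
Alas2: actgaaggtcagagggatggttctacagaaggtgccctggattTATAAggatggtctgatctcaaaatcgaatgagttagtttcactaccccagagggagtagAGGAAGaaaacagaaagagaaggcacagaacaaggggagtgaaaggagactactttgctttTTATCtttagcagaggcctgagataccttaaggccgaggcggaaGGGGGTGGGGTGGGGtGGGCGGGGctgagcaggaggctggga
Pf4: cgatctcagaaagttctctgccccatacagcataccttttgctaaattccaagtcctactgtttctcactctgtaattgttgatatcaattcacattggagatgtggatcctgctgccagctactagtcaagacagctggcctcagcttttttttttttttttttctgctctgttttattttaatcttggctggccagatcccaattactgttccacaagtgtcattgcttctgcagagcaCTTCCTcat
Ppbp: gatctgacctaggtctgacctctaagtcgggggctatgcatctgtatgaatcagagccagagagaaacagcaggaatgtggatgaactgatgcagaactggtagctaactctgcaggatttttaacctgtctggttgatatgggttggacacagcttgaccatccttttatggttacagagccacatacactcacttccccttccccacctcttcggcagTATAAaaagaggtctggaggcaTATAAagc
Itga2b: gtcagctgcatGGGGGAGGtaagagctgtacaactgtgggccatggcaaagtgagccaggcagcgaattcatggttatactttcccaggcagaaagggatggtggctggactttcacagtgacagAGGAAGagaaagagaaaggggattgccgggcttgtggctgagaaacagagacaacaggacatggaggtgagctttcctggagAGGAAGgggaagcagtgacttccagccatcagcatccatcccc

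All 5 red cell promoters held GATAA or TTATC, and none of the 3 platelet promoters did in these windows. Over the 32851 RefSeq promoter windows of the same length, 22.6% held it. TATAA stood 27 to 30 bases before the start in the 4 globin genes and in Ppbp, with another copy 8 bases before the start of Ppbp and one 207 bases before that of Alas2. It occurred in 16.0% of all windows. The KLF pattern was in Hbb-bs, Hbb-bt, Alas2 and Itga2b and in 45.9% of all windows, and the ETS core was in Alas2, Pf4 and Itga2b and in 29.5%. A match is a string of letters and not a measured binding site.

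The promoter of Hba-a2 (chr11:32296242-32296491, +) was identical to that of Hba-a1 over 247 of 247 aligned bases, whereas those of Hbb-bs and Hbb-bt matched at 127 of 249. The coding sequences of both pairs, taken as the longest reading frame of each GENCODE M21 transcript, were nearly the same: 428 of 429 bases in the alpha pair and 443 of 444 in the beta pair. Of all 50-base windows along the Hba-a2 transcript, 86.9% also occur in Hba-a1, and 67.5% the other way round. For Hbb-bs and Hbb-bt the shares were 65.8% and 58.3%. The counting of reads that match both copies is not described in the sources at hand, so the split within each pair is uncertain. If such reads were left out, the globin levels given below are too low, by different amounts for each gene. Ratios and rankings that involve these genes carry the same limit. Alas2 overlaps Apex2 and Mir3620 in the RefSeq annotation, and without a known strand setting reads of the shared stretch cannot be told apart.

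As counted, haemoglobin transcripts were scarce in every library, and their sum was higher in each naringin library than in each control library. Taken singly, 3.36% of all genes tested were placed that way. The 4 globin genes together took 34.3, 31.0 and 47.6 CPM in Control 1, 2 and 3, and 53.3, 56.0 and 53.2 CPM in Naringin 1, 2 and 3. That is 429 to 839 reads a library, or 0.00310% to 0.00560% of the reads. Adding Alas2, the 5 red cell genes summed to 35.8, 32.1 and 49.6 CPM in Control and 55.2, 58.8 and 56.0 CPM in Naringin. Control 3 lay closest to the naringin libraries. The means were 39.2 ± 9.22 and 56.7 ± 1.86 CPM (SD, n = 3 each), a ratio of 1.45, or 0.53 on the log2 scale. In bulk tissue, more red cells and more RNA per red cell cannot be told apart.

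**Figure D1:**
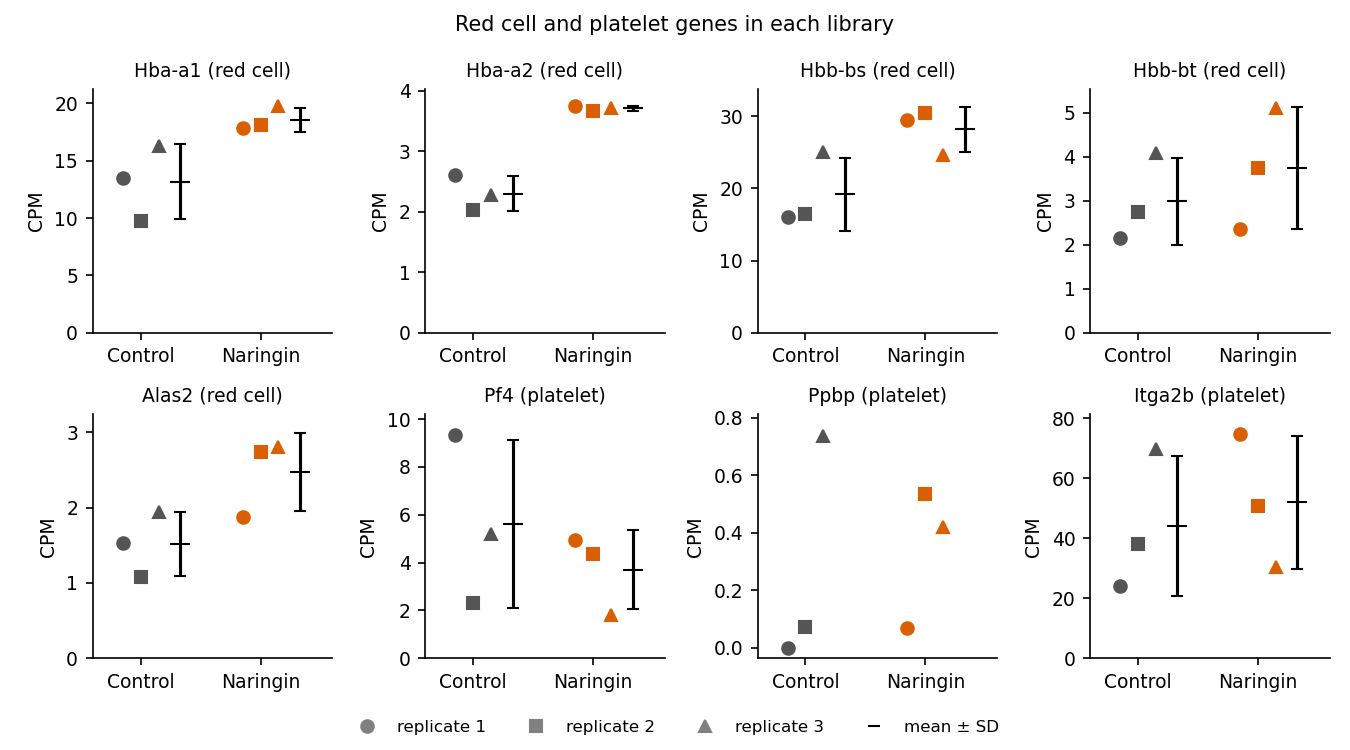
CPM of each of the 8 genes (vertical axes, linear) in the 3 Control (grey) and 3 Naringin (orange) libraries, marker shape giving the replicate number and black bars the mean ± SD of a group (left out for Ppbp, which had at most 11 reads). Hba-a1 and Hba-a2 do not overlap between the groups, and the other 6 genes do.

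Among the alpha chain genes, Hba-a1 lay at 13.5, 9.76 and 16.3 CPM in Control and 17.8, 18.1 and 19.8 CPM in Naringin. Every naringin library was above every control library, with Control 2 the lowest. The means were 13.2 ± 3.28 and 18.6 ± 1.04 CPM (SD), and the log2 fold on log2(CPM + 1) was 0.49 ± 0.19 (SE). Hba-a2 lay at 2.60, 2.02 and 2.27 CPM in Control, from 28 to 34 reads, and at 3.75, 3.67 and 3.71 CPM in Naringin, from 53 to 56 reads. Its groups did not overlap, with an SD of 0.0399 CPM among the naringin libraries, less than the worth of 1 read. The log2 fold was 0.52 ± 0.18 (SE).

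Among the beta chain genes, Hbb-bs lay at 16.1, 16.5 and 24.99 CPM in Control and 29.4, 30.5 and 24.66 CPM in Naringin. Control 1 and 2 were low, and Control 3 was just above Naringin 3, so the groups overlapped. The means were 19.2 ± 5.04 and 28.2 ± 3.11 CPM, with a log2 fold of 0.56 ± 0.19 (SE). Hbb-bt lay at 2.14, 2.75 and 4.08 CPM in Control and 2.35, 3.74 and 5.11 CPM in Naringin. The groups overlapped, with the highest library in Naringin and the lowest in Control, and the log2 fold of 0.23 ± 0.28 (SE) was smaller than its error. It was 0.075 without Control 1 and 0.026 without Naringin 3, and was 0.42 without Control 3 and 0.46 without Naringin 1. Alas2, the haem enzyme, lay at 1.53, 1.08 and 1.94 CPM in Control and 1.88, 2.74 and 2.80 CPM in Naringin, from 15 to 41 reads. Naringin 1 was just under Control 3, and the log2 fold was 0.47 ± 0.22 (SE).

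Of the 5 red cell genes, all passed the minimum mean of 1 CPM, 5 had a higher mean with naringin, and 0 passed the adjusted threshold of 0.05 in limma, a test for differences in log expression. The limma adjusted p was 0.9996 for each. Over all 14873 genes tested, limma called 0, which is 0%, and 213 had an unadjusted p under 0.05. The quasi-likelihood test of edgeR on recovered reads also gave 0 calls (233 genes had p under 0.05 before adjustment), and DESeq2 gave 3, none of them among these 8. At an unadjusted limma p under 0.05 and a higher mean there were 3 red cell genes, against 0.975% of all genes. The unadjusted limma p was 0.0346 for Hba-a1, 0.0197 for Hba-a2 and 0.0199 for Hbb-bs. The groups did not overlap in 2 of the 5, with naringin above, against 3.36% of all genes with naringin above and 2.29% with naringin below. The median log2 fold was 0.49 over the 5 genes and 0.025 over all genes tested, 8431 of which had a higher mean. The 4 globin genes are near copies in pairs and come from the same cells, so they are not independent measures.

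How many red cell genes had an unadjusted limma p under 0.05 depended on single libraries. The count was 0 without Control 2 and 0 without Naringin 2, 1 without Control 1, 4 without Control 3, and 2 without either of the other libraries. The same fits moved the count over all genes: 185, 46, 109 and 398 of the 14873 were higher at that p without Control 2, Naringin 2, Control 1 and Control 3, and 71 and 400 without Naringin 1 and Naringin 3, against 145 with all libraries. All 5 log2 folds stayed above 0 in each of these fits. The summed red cell CPM gave a log2 ratio of 0.41 to 0.74 with 1 library left out. The spread lay mostly in the controls: without Control 3 the other 2 controls were at 35.8 and 32.1 CPM, against 55.2 to 58.8 CPM with naringin.

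**Figure D2:**
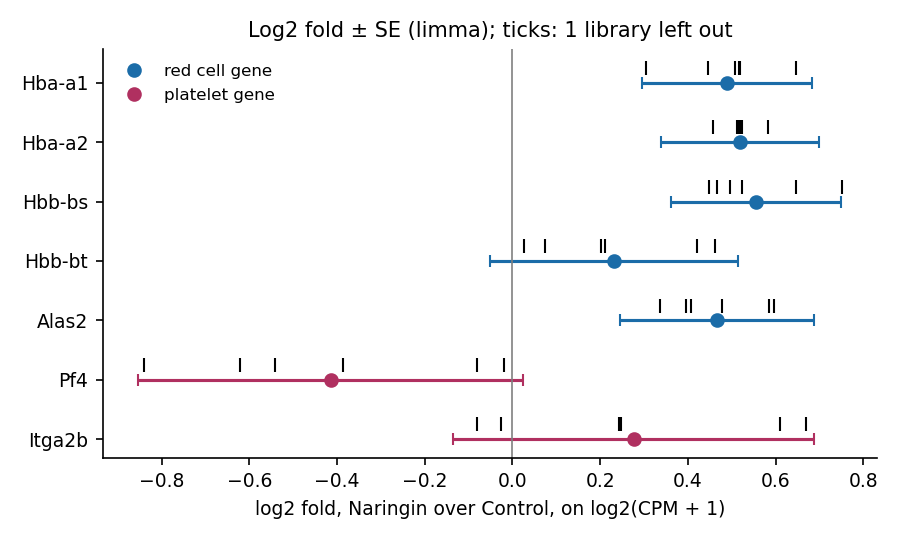
Log2 fold of Naringin over Control on log2(CPM + 1) (horizontal axis) for the 7 genes tested, as points with limma's SE. The small ticks above each point are the values with 1 of the 6 libraries left out. The 5 red cell genes stay above 0, and Itga2b crosses it.

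The makeup of the red cell signal was similar in the 2 groups. Alpha chain genes took 0.711 ± 0.149 times the CPM of beta chain genes in Control and 0.701 ± 0.0787 times in Naringin. Hba-a1 had 5.72 ± 1.27 times the CPM of Hba-a2 in Control and 5.00 ± 0.292 times in Naringin, and Hbb-bs had 6.54 ± 0.831 and 8.51 ± 3.87 times that of Hbb-bt. The ratio of Hbb-bs to Hbb-bt was 7.50, 6.00 and 6.13 in Control and 12.5, 8.16 and 4.82 in Naringin. Alas2 stood at 4.01% ± 0.486 of the globin CPM in Control and 4.56% ± 0.919 in Naringin. In each of these 4 ratios the groups overlapped, and the difference in means was smaller than the larger SD.

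The 3 platelet genes went different ways from each other and showed no common difference between the groups. Pf4, the chemokine, lay at 9.33, 2.31 and 5.21 CPM in Control and 4.96, 4.34 and 1.82 CPM in Naringin. Control 1 was highest and Naringin 3 lowest, and the rest lay between. The means were 5.62 ± 3.53 and 3.71 ± 1.66 CPM, with a log2 fold of -0.41 ± 0.44 (SE) and an unadjusted limma p of 0.372. That value was -0.019 without Control 1, -0.082 without Naringin 3 and -0.84 without Control 2.

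Ppbp, the other platelet chemokine, had 0, 1 and 11 reads in Control and 1, 8 and 6 in Naringin. With 0 reads Control 1 could still have held up to 0.229 CPM, and the mean of all 6 libraries was 0.305 CPM, too low for the test. The 12 control and 15 naringin reads gave a ratio of 1.18 once scaled to depth. Its 95% interval, exact binomial and for counting error alone, ran from 0.518 to 2.77. A difference within these bounds was not detectable at this depth.

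Itga2b, the integrin chain, was the platelet gene with the most reads, from 314 to 1115 a library. It lay at 24.0, 38.2 and 69.6 CPM in Control and 74.7, 50.9 and 30.3 CPM in Naringin. Each group held a high and a low library, and the groups overlapped over most of their range. The means were 43.9 ± 23.4 and 52.0 ± 22.2 CPM, with a log2 fold of 0.28 ± 0.41 (SE) and an unadjusted limma p of 0.520. The sign turned without Control 1, at -0.081, and without Naringin 1, at -0.026, and the value was 0.67 without Control 3 and 0.61 without Naringin 3. The highest library had 3.11 times the lowest.

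Of the 3 platelet genes, 2 passed the minimum mean, 1 with a higher and 1 with a lower mean, and 0 had an unadjusted limma p under 0.05, against 1.43% of all genes in either direction. Groups that do not overlap were found in 0 of these 2, against 5.65% of all genes. Summed, the 3 genes took 33.3, 40.6 and 75.6 CPM in Control and 79.7, 55.8 and 32.6 CPM in Naringin. This sum was mostly Itga2b, which made up 72.0% to 94.1% of it. The means were 49.8 ± 22.6 and 56.0 ± 23.6 CPM. Pf4 and Ppbp without Itga2b summed to 5.89 ± 3.47 and 4.05 ± 1.57 CPM, the opposite direction, with overlapping groups.

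Set against each other within each library, red cell and platelet genes did not keep a fixed ratio. The log2 of the summed red cell CPM over the summed platelet CPM was 0.10, -0.34 and -0.61 in Control and -0.53, 0.076 and 0.78 in Naringin. Naringin 3 had the highest ratio and Control 3 the lowest, and the groups overlapped. The means were -0.28 ± 0.36 and 0.11 ± 0.66, so the difference of 0.39 was smaller than the SD in Naringin. Against Pf4 alone, the red cell sum stood at 1.94, 3.79 and 3.25 on the log2 scale in Control and 3.48, 3.76 and 4.94 in Naringin. Against Itga2b alone it was 0.58, -0.25 and -0.49 in Control and -0.44, 0.21 and 0.89 in Naringin. Both sets overlapped between groups. The red cell sum varied 1.83-fold over the 6 libraries and the platelet sum 2.45-fold.

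**Figure D3:**
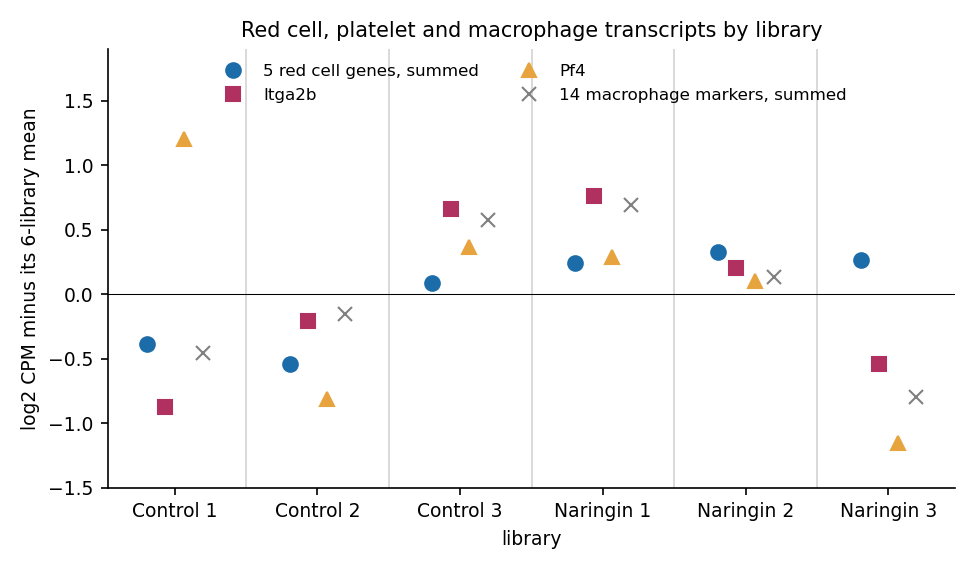
Log2 CPM of the summed red cell genes, Itga2b, Pf4 and the summed macrophage markers in each of the 6 libraries (horizontal axis), each minus its own mean over the libraries. The red cell points lie higher in the 3 Naringin than in the 3 Control libraries, Itga2b lies on the same side of 0 as the macrophage markers in each library, and Pf4 is highest in Control 1.

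Levels can be compared between genes only per length of transcript, taken here as all exons of a gene in GENCODE M21. For the globin genes, the unknown counting of reads shared by near copies remains a limit. Per kilobase, the order in Control was Hbb-bs at 24.97 ± 6.56 CPM, Hba-a1 at 16.2 ± 4.04, Itga2b at 8.06 ± 4.28, Pf4 at 7.79 ± 4.89, Hbb-bt at 4.25 ± 1.41, Hba-a2 at 3.45 ± 0.434, Alas2 at 0.631 ± 0.178 and Ppbp at 0.249 ± 0.374. The ranges of mean ± SD overlapped for all neighbours in this order except Hba-a2 and Alas2. In Naringin, Hbb-bs stood at 36.7 ± 4.05 and Hba-a1 at 22.9 ± 1.29 CPM per kilobase, and Itga2b followed at 9.53 ± 4.07. Hba-a2 at 5.57, Hbb-bt at 5.31 and Pf4 at 5.14 were within their spread of each other there, above Alas2 at 1.03 and Ppbp at 0.314.

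Other genes of red cells were then examined from lists that were set for these cells, though with earlier results of these data known. The embryonic and minor globins and the alpha chain chaperone Ahsp were nearly silent: Hba-x, Hbb-y and Hbq1a had 0 reads in all 6 libraries, and Hbb-bh1, Hbb-bh2, Hbq1b and Ahsp had at most 5 in any. Of 16 genes of the red cell membrane and surface, 6 passed the minimum mean, 3 higher and 3 lower, with a median log2 fold of 0.033. Members restricted to red cells had few reads, at most 6 for Slc4a1 (band 3, the anion exchanger) and 0 for Epb42. Rhag, the Rh-associated glycoprotein, had 0, 1 and 0 reads in Control and 4, 3 and 2 in Naringin, all near the limit of detection. Ermap, a red cell surface protein, and Aqp1, a water channel also of endothelium, had log2 folds of 0.23 ± 0.25 and 0.10 ± 0.19 (SE). Dmtn (dematin), an actin-bundling protein, and Gypc (glycophorin C) had -0.34 ± 0.33 and -0.080 ± 0.14 (SE).

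Haem synthesis and iron supply genes, many of which other cells also use, differed little. All 13 passed the minimum mean, 8 higher and 5 lower, with a median of 0.047. An unadjusted limma p under 0.05 was found in 0 of them, against 1.43% of all genes. Abcb10, a mitochondrial transporter, and Slc11a2 (DMT1), an iron importer, had log2 folds of 0.20 ± 0.15 and 0.13 ± 0.12 (SE). Slc25a38, a mitochondrial glycine carrier, and Alad, the second enzyme of haem synthesis, had -0.057 ± 0.12 and -0.045 ± 0.15 (SE). Of 16 erythroid factors and late red cell genes, 11 were tested, 8 higher and 3 lower, with a median of 0.047. The sums of the 16 also did not overlap, at 514 to 533 CPM in Control and 540 to 545 CPM in Naringin. Their log2 ratio was only 0.060. Nfe2, a transcription factor of the globin genes, had a log2 fold of 0.26 ± 0.21 (SE), and Cd24a, a surface protein shared with B cells, 0.13 ± 0.12 (SE). Bpgm, which makes bisphosphoglycerate in red cells, and Epor, the erythropoietin receptor, both had -0.12, with SEs of 0.14 and 0.44. Gata1, a factor of red cells and megakaryocytes, had 0.047 ± 0.24 (SE), and Klf1 had at most 4 reads.

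Platelet genes outside the 3 were mostly at the limit of detection where they are restricted to platelets. Gp6 and Treml1 had at most 1 read in any library, Gp9 at most 5, Gp1bb at most 8 and Tubb1, the platelet tubulin, at most 9. Gp1ba was an exception, with 42 to 85 reads a library. Gp5, a subunit of the von Willebrand factor receptor, had 0, 0 and 2 reads in Control and 3, 4 and 3 in Naringin. Itgb3, the beta chain that pairs with Itga2b and is also made by other cells, stood at 66.2 ± 15.6 and 62.0 ± 11.3 CPM and was lowest in Control 3 and Naringin 1, the libraries with the most Itga2b. Some other genes of the platelet lists had their order of libraries closer to that of Itga2b. Clec1b (CLEC-2), a receptor of platelets and some myeloid cells, lay at 4.97, 8.53 and 18.6 CPM in Control and 13.5, 10.5 and 2.80 CPM in Naringin. Ptgs1 (cyclooxygenase 1) lay at 10.4, 12.9 and 20.0 CPM and at 28.3, 14.8 and 9.81 CPM, and Mmrn1 (multimerin 1), also on the lymphatic endothelial list, at 10.3, 27.0 and 26.1 CPM and at 51.4, 23.3 and 7.35 CPM. These genes were chosen after their values were seen. Of 15 surface receptors, 9 were tested, 5 higher and 4 lower, with a median log2 fold of 0.027. Selp (P-selectin) and F2rl2 (a thrombin receptor) had 0.43 ± 0.30 and 0.21 ± 0.28 (SE), and Gp1ba and Clec1b had -0.28 ± 0.26 and -0.27 ± 0.56 (SE). Of 15 granule, signalling and cytoskeleton genes, 12 were tested, 6 higher and 6 lower, with a median of 0.041. Thbs1 (thrombospondin 1), which many cell types secrete, had the highest log2 fold, 0.91 ± 0.43 (SE), with 62.9 CPM in Naringin 1 and 10.8 to 26.1 CPM in the other 5 libraries. Plek (pleckstrin) had 0.28 ± 0.18 (SE), and Vwf and Bin2 had -0.22 ± 0.24 and -0.067 ± 0.15 (SE). Over these 5 lists with tested genes, 0 genes reached an unadjusted limma p under 0.05, against 1.43% of all genes. At that share, few or none would be found in lists of this size.

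Most listed genes restricted to platelets thus had few reads, with Gp1ba an exception. Clec1b and Ptgs1, chosen after their values were seen, had an order of libraries closer to that of Itga2b. Plek and Itgb3 of the same lists did not, and were lowest in Control 3. The share of platelets in the values of Itga2b and Pf4 was not tested, and both are called by their symbols. Itga2b also varied with markers of other cells. The 14 macrophage markers, all with a read, summed to 1678, 2067 and 3430 CPM in Control and 3708, 2524 and 1320 CPM in Naringin. In both sums Naringin 1 was highest, followed by Control 3, Naringin 2 and Control 2. Of this list Vsig4 was at 0 in 5 libraries with 1 read in the other, and Cd163 had at most 20 reads. The 11 mast cell and basophil markers summed to 87.6, 135 and 385 CPM in Control and 335, 281 and 55.0 CPM in Naringin, and the basophil protease Mcpt8 had at most 4 reads. The 12 lymphatic endothelial markers, a list added after the values of Itga2b were seen, summed to 801, 1263 and 1545 CPM in Control and 1196, 1129 and 1062 CPM in Naringin, an order unlike that of Itga2b. The chemokine Ccl21a, at 641 to 1219 CPM, made up most of this sum, so the order of the sum mostly reflects that gene. Each of the other markers but Reln was highest in Naringin 1, as Itga2b was, and Reln was highest in Control 2. Itga9, for example, lay at 19.3, 31.9 and 41.0 CPM in Control and 46.4, 33.9 and 19.0 CPM in Naringin. The part of these cells in the values of Itga2b was not tested.

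Pf4 followed another pattern. Its highest library, Control 1, was also highest in the 10 fat cell markers, which summed to 291, 132 and 176 CPM in Control and 206, 164 and 107 CPM in Naringin, and its lowest, Naringin 3, was lowest in them. Lpl (lipoprotein lipase), at 68.5 to 161 CPM, made up most of this sum in each library. Adipoq and Cidec of the same list were also highest in Control 1 and lowest in Naringin 3. Unlike Pf4, both were lower in Control 3 than in Control 2. The part of fat around the node in the values of Pf4 was not tested. Fat cell markers had lower means with naringin in 8 of the 8 that were tested, against 6442 of all 14873 genes. Their median log2 fold was -0.42, and the sums overlapped. Cfd, with the largest fold, had 24.6 CPM in Control 1 but 7.16 and 5.75 CPM in Control 2 and 3. The groups did not overlap in 1 of the 8, Thrsp, against 2.29% of all genes with naringin below. Thrsp lay at 4.74, 5.42 and 4.74 CPM in Control and 2.28, 4.14 and 3.08 CPM in Naringin. Its unadjusted limma p was 0.0365, and it did not pass the adjusted threshold. Over all genes, 0.457% were lower at an unadjusted limma p under 0.05. Plin1, not tested, had 36 reads in Control and 43 in Naringin.

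Blood also carries leukocytes. The 14 neutrophil markers summed to 82.2, 89.9 and 370 CPM in Control and 353, 212 and 74.5 CPM in Naringin, so Naringin 3, with 56.0 CPM of red cell genes, had the fewest neutrophil transcripts of all 6. Of these markers 13 were tested, 10 higher and 3 lower, with a median log2 fold of 0.37. The alarmin genes S100a8 and S100a9 had log2 folds of 0.53 ± 0.83 and 0.57 ± 0.84 (SE). The 3 lower were Ltf, Ngp and Camp, at -0.26 ± 0.83, -0.27 ± 0.80 and -0.15 ± 0.75 (SE). Of 11 blood monocyte markers, 9 were higher and 2 lower, with a median of 0.30. The peptidase Ace, high in patrolling monocytes and in endothelium, lay at 12.9, 13.8 and 15.2 CPM in Control and 21.4, 17.6 and 17.5 CPM in Naringin, and F10, coagulation factor X, at 0.841, 0.723 and 1.87 CPM and at 5.23, 2.20 and 2.31 CPM. Both had an unadjusted limma p under 0.05 (0.0277 for Ace and 0.0176 for F10), and neither passed the adjusted threshold. Over all genes, 0.975% were higher at that p. The 2 lower monocyte markers were Ly6c2, at -0.0092 ± 0.24, and Nr4a1, at -0.12 ± 0.13 (SE). The 12 blood endothelial markers had a median of 0.034, with sums of 665 to 940 CPM in Control and 722 to 1025 CPM in Naringin.

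**Figure D4:**
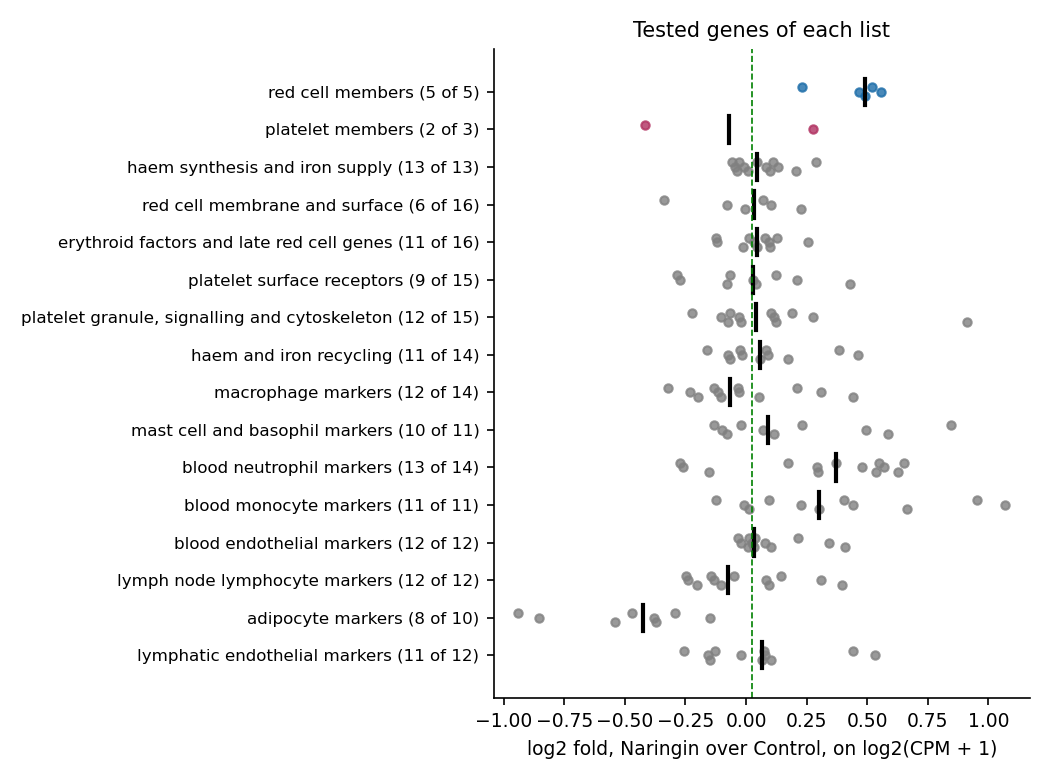
Log2 fold of Naringin over Control on log2(CPM + 1) (horizontal axis) for each tested gene of each list (rows, with the number tested of all members). Black bars are list medians and the dashed line is the median of all genes tested, 0.025. The 5 red cell genes lie to the right of it, and most other red cell and platelet lists lie around it.

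Genes that take up and break down haem and iron from red cells were compared last. Hmox1, which opens the haem ring, stood at 192, 81.9 and 214 CPM in Control and 390, 252 and 76.1 CPM in Naringin, and Slc40a1 (ferroportin), which exports iron, at 44.6, 20.2 and 98.6 CPM and at 124, 73.6 and 10.7 CPM. Both were highest in Naringin 1 and lowest in Naringin 3, whose red cell sums were alike. Hp (haptoglobin), which binds free haemoglobin, had a log2 fold of 0.46 ± 0.61 and Hmox1 0.38 ± 0.58 (SE). Ftl1 (ferritin light chain) and Slc48a1, a haem transporter, had -0.16 ± 0.26 and -0.065 ± 0.21 (SE). Spic, the transcription factor of iron-recycling macrophages, had a log2 fold of 0.17 ± 0.37 (SE). Of the 14 genes, 11 were tested, 6 higher and 5 lower, with a median of 0.058. An unadjusted limma p under 0.05 was found in 0 of them, against 1.43% of all genes.

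For likeness of pattern, 11009 genes averaging 5 CPM or more were ranked by Pearson's r of log2(CPM + 1) with a member over the 6 libraries. The 5 nearest to Hbb-bs were Mcm10 (r = 1.00), Strap (0.996), Tsr2 (0.986), Gdi2 (0.984) and Fundc1 (0.975), none of which is a blood marker listed here. Those nearest to Pf4 were Cd200r4 (r = 0.98), Lpl (0.964), Rap2b (0.954), Mmp25 (0.941) and Clip2 (0.938), of which Lpl, lipoprotein lipase, is on the fat cell list. They are the highest of 11009 genes over 6 points that share libraries and depth, and are given as a description. Lpl also made up most of the summed fat cell markers, so its likeness to Pf4 is not separate from that of the sum.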

How the data were processed

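Lymph node RNA (RNeasy) went into NEBNext Ultra libraries, 1 µg per sample, per the labels' protocols. Tools listed by the submitters' processing notes are STAR 2.7.9a, Trimmomatic 0.39, Subread 1.6.0 with featureCounts, and edgeR 3.40.0, with the build mm39. Annotation and strand setting: not given in the sources used here. The authors deposited CPM for 50559 genes, and each column summed to 1000000. Every value above 0 was a whole number of reads within 0.01, so reads were recovered for edgeR 4.0.16 and DESeq2 1.42.0, run as alternatives. Genes averaging 1 CPM or more, 14873 in all, were tested with limma 3.58.1 (R 4.3.3, trend and robust moderation, 2-sided) on log2(CPM + 1), with Benjamini-Hochberg adjustment. SEs are limma's moderated ones. Fold changes on that scale understate those of low genes, and Ppbp was below the minimum.

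The members, lists and rules were chosen with earlier results of these data known, so no list is independent support. All 8 members are named. Of each other red cell, platelet and iron recycling list, up to 2 tested genes per direction by smallest limma p are named, with those whose groups do not overlap, and the 5 genes most like Hbb-bs and Pf4. The genes near 0 reads, Gata1, Itgb3, Ptgs1, Mmrn1, Ccl21a, Slc40a1, Spic and the genes named from the cell marker lists were chosen after their values were seen. Mmrn1, Lyve1, Cd163 and Fech are each on 2 lists. The fits were checked on simulated counts with known changes. Scalings, filters, pseudocounts, tests, a replicate block and single libraries were varied. Some genes of the lists are not reported here.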

Additional observations from a re-analysis of the deposited data

How the results depend on the processing

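The number of genes called by limma over all genes was 0, and it was 3 with DESeq2 on recovered reads and 3 with edgeR without a minimum mean, an alternative chosen after seeing the data. Both named Cd209f, Cd209g and Fgf23. With 1 library left out it was 0 to 1, the call being Cxcr4 without Control 3. None of the 8 members was called under any alternative run. The causes were not tested. The log2 folds of the red cell genes, Pf4 and Ppbp kept their sign in every fit that held them. That of Itga2b, 0.28, ran from -0.081 to 0.67 with 1 library left out, turning to -0.081 without Control 1 and -0.026 without Naringin 1. At an unadjusted p under 0.05, limma had 145 genes higher and 68 lower, and with upper-quartile scaling 115 and 118, median-of-ratios 130 and 95.

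The log2 ratio of summed red cell CPM, 0.53, lay between 0.45 and 0.56 under other scalings, summaries and members, and between 0.41 and 0.74 with 1 library left out. That of summed platelet CPM, 0.17, was -0.010 as a mean of log2(CPM + 1) and -0.54 without Itga2b, and ran from -0.17 to 0.60 with 1 library left out, below 0 without Control 1 (-0.052) and without Naringin 1 (-0.17). The difference of the red cell over platelet log2 ratio, 0.39, was 0.95 without Hbb-bs and Itga2b, and 0.054 to 0.71 with 1 library left out.

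With the replicate number as a block, limma called 0 genes and the log2 ratio of summed red cell CPM was 0.56. The samples share only a number: the correlations of same-numbered deviations from the group means were -0.26, -0.019 and -0.27, and 0 of 6 libraries correlated best with their own number. Depth limits Ppbp, Alas2 and the red cell and platelet genes with few reads.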

Other observations

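Itga2b had its own near neighbours, looked up after its values were seen. Over the 6 libraries the genes nearest in log2(CPM + 1) were Mcemp1 (Pearson's r = 0.997), Pcolce (0.995), Evc2 (0.992), Nkpd1 (0.991) and Ndel1 (0.991). Mcemp1, named for its expression in mast cells, lay at 15.7, 19.5 and 26.9 CPM in Control and 26.7, 23.0 and 18.1 CPM in Naringin. Pcolce, which enhances the processing of procollagen, lay at 30.4, 39.0 and 65.7 CPM and at 66.7, 49.7 and 34.9 CPM. These values are a description of 6 libraries, and no cause for them was tested.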
